A study of Mus musculus with 2 samples.

Results

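The 7 genes described here, of 55536 genes in the deposited gene tables, are the adult blood globin genes Hba-a1, Hba-a2, Hbb-bs and Hbb-bt, the red cell heme enzyme gene Alas2, and the globin genes Ngb and Cygb, which are expressed outside blood. They were chosen by name, and all 7 had a row in every table. Their transcripts were measured by total RNA sequencing of mouse hippocampus (labelled layer of hippocampus) at 14 days of age. Every mouse was a male of the B6CASTF1/J strain, a first-generation cross of C57BL/6J and CAST/EiJ, with no treatment or allele named. The single group held 2 biological replicates, each label listed 3 males, and 300 ng of RNA with ERCC spike-in RNAs went into each library. No comparison between conditions was possible, and any blood left in the vessels of the tissue was part of the sample.

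Haemoglobin, the oxygen carrier of red cells, is a tetramer of alpha- and beta-globin chains, each holding a heme group. Red cells lose their nucleus and stop transcription as they mature, so the globin mRNA found in circulating blood is what the youngest cells still carry. Heme synthesis starts with 5-aminolevulinate synthase, for which red cells use Alas2 and other cells use Alas1. Neuroglobin (Ngb) is a globin of certain neurons, and cytoglobin (Cygb) is a globin of fibroblast-like cells and some neurons.

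The gene counts of replicate 1 totalled 29144892 and those of replicate 2 31755578, with 0.516% and 0.484% of counts from the spike-ins. The 3 counts that a listed 0 still allows came to 0.103 and 0.0945 CPM, which covers counting error only. Genes of hippocampal excitatory neurons were abundant in both libraries, Camk2a at 1260 and 1307 TPM (transcript abundance corrected for length and scaled to a fixed total) and Slc17a7 at 663 and 687 TPM. The 2 libraries were not alike in all cell type genes: Prox1, a transcription factor gene of dentate granule cells, was at 43.9 TPM in replicate 1 and 63.0 in replicate 2, whereas Mbp, the myelin basic protein gene of oligodendrocytes, was at 813 and 439 TPM. The p-values below measure only how these 2 libraries differ.

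In the mm10 genome, Hba-a1 (ENSMUSG00000069919.7) lies on chromosome 11 at chr11:32283511-32284465 and Hba-a2 (ENSMUSG00000069917.7) at chr11:32296489-32297298, both on the plus strand. Hbb-bs (ENSMUSG00000052305.6) lies at chr7:103826534-103828096 and Hbb-bt (ENSMUSG00000073940.3) at chr7:103812524-103813996, both on the minus strand. Each main transcript of these 4 genes has 3 exons. Alas2 (ENSMUSG00000025270.13) lies at chrX:150547375-150570638 on the plus strand, with 11 exons in its main transcript. Ngb (ENSMUSG00000021032.13) lies at chr12:87097531-87102539 and Cygb (ENSMUSG00000020810.5) at chr11:116645595-116654313, both on the minus strand and with 4 exons. In the annotation, Alas2 shared 311 exonic bases with Apex2 on the other strand, and Cygb shared 201 with Prcd. Alas2 also overlapped a microRNA gene on the other strand, for which exonic sharing was not measured. No source used here says whether the counting used strand.

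The copies within each pair were almost the same sequence, which bears on every value given for a single copy. The coding sequences of Hba-a1-201 and Hba-a2-201, the main transcripts, were 426 bases long and 99.77% identical, with a single substitution, C381T (Hba-a1-201 first, counted from the first base of the start codon). Those of Hbb-bs-201 and Hbb-bt-201 were 441 bases long and also 99.77% identical, with C417T (Hbb-bs-201 first) as their only substitution. Each substitution falls on position 3 of its codon, in the last coding exon. The stretches below, 5′ to 3′ from the GENCODE M21 transcripts, show the surroundings of each substitution with the base that differs in capitals.
Hba-a1-201, chr11:32284313-32284373, plus strand: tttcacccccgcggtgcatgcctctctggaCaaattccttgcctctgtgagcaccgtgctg
Hba-a2-201, chr11:32297130-32297190, plus strand: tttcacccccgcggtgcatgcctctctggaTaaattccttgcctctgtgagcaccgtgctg
Hbb-bs-201, chr7:103826668-103826722, minus strand: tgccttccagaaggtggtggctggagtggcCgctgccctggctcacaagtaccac
Hbb-bt-201, chr7:103812659-103812713, minus strand: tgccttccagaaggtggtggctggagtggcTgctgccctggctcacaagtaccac
These are reference sequences. The bases carried by the CAST/EiJ parent at these positions were not analysed here.

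Outside the coding sequence the pairs differed in how far they could be told apart. The annotated alpha-globin untranslated regions had no difference over their shared length (35 bases at the 5′ end and 77 at the 3′ end), and differed only in extent. The 5′ region of Hba-a1-201 was annotated at 196 bases against 35 in Hba-a2-201, and the 3′ region at 77 bases against 93. The beta-globin untranslated regions differed at 9 of 53 shared positions at the 5′ end and, compared base by base without gaps, at 85 of 134 at the 3′ end. Of all stretches of 100 bases (a length chosen for this comparison), 43.5% in Hba-a1-201 and 25.5% in Hba-a2-201 occurred in no other gene's annotated transcripts. The same share was 37.4% in Hbb-bs-201 and 45.2% in Hbb-bt-201, and the only gene sharing the rest was the paired copy. Every stretch of Alas2, Ngb and Cygb was found in that gene alone. Stretches were compared on the transcript strand only, so the overlaps of Alas2 and Cygb with genes on the other strand are not counted.

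Upstream of the start sites, the blood globin genes held the short motifs known from globin promoters. These are the TATA box (searched as ATATAA), the CCAAT box (CCAAT), the CACCC box, bound in red cell precursors by Klf1 (CACCC), and the GATA motif, bound by Gata1 (GATAA). Both strands were searched from 250 bases before to 50 after each RefSeq start (GRCm38.p6), and no match overlapped another in these genes. All 4 motifs occurred in Hba-a1, Hba-a2, Hbb-bs and Hbb-bt, and in 233 of all 32817 promoter windows (0.71%). Singly, ATATAA occurred in 9.83% of all windows, CCAAT in 37.4%, CACCC in 57.5% and GATAA in 25.4%. Alas2 held GATAA and 3 matches of CACCC, with neither ATATAA nor CCAAT in this window. The stretches below hold no annotated exon of their gene and are given 5′ to 3′ on the strand of the gene, with matches to the 4 motifs on either strand in capitals. They are shown because the annotated 5′ ends compared below differ in whether such motifs lie inside the transcript.
Hba-a2, -120 to -4 from the start, chr11:32296372-32296488: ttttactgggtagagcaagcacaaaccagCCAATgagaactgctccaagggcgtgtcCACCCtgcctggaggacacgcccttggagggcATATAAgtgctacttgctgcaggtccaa
Hbb-bs, -83 to -1 from the start, chr7:103827929-103828011: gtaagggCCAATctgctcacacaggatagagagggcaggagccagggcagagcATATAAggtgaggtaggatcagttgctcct
Hbb-bt, -190 to -76 from the start, chr7:103813999-103814113: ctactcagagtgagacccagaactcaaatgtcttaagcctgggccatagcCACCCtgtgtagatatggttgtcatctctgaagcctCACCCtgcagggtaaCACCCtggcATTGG
Alas2, -120 to -43 from the start, chrX:150547297-150547374: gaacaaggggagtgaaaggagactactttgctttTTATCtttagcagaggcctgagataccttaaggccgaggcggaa
The promoter of Hba-a1 is not printed because all 297 of its aligned bases were identical to those of Hba-a2, at an offset of 3. Matches to ATATAA began 28 bases before the RefSeq start in Hba-a1, 31 in Hba-a2, 30 in Hbb-bs and 29 in Hbb-bt.

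The annotated 5′ ends did not all coincide with the RefSeq starts. Hba-a2-201 began 3 bases upstream of the RefSeq start and Hbb-bs-201 at it. Hba-a1-201 began 161 bases upstream, so that its first exon contained the ATATAA match, the CCAAT match and a CACCC match. Hbb-bt-201 began 73 bases upstream, with its ATATAA match and a CCAAT match inside the exon. Alas2-201 began 42 bases upstream, with its 3 CACCC matches inside exonic sequence. A further transcript, Hbb-bs-203, began 168 bases upstream, with a CACCC match in its first exon. The extra bases lengthen the transcript over which reads are counted. For the alpha pair they also set the annotated transcripts apart: 165 of 600 stretches of 100 bases occurred in Hba-a1-201 alone, against 20 of 455 in Hba-a2-201. The genomic bases upstream of both copies were identical over the 297 compared above. The extra 5′ bases thus separate the copies by annotation, not by sequence.

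**Figure D1:**
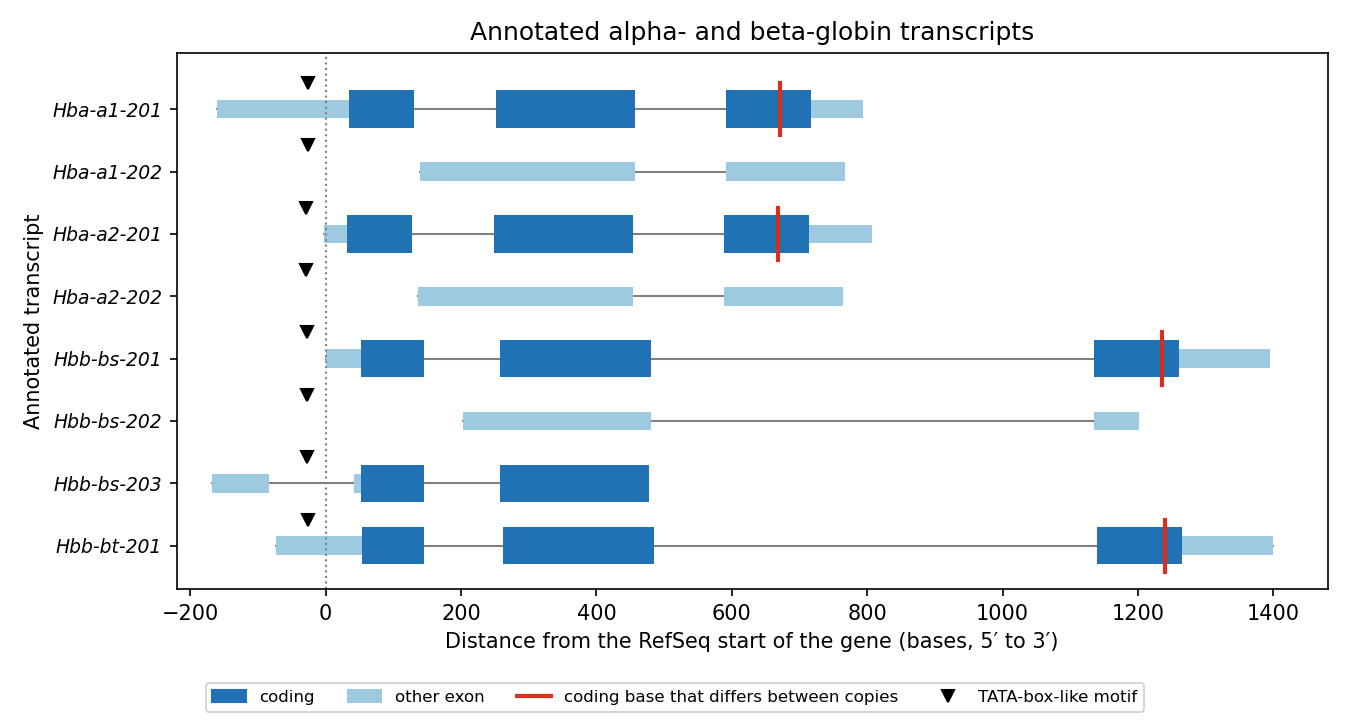
Annotated transcripts of the 4 blood globin genes by distance in bases from the RefSeq start (horizontal axis, 5′ to 3′), with coding parts in dark blue, other exons in light blue, the coding base that differs between copies as a red line and the ATATAA match as a black triangle. The exons of Hba-a1-201 and Hbb-bt-201 begin 161 and 73 bases before the start and run over the triangle.

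The blood globin transcripts were found in the hippocampus at levels that placed 3 of them at or above rank 473 of all genes. Hbb-bs, a beta-globin chain gene, was at 274 TPM in replicate 1 and 202 in replicate 2 (238 ± 50.7, SD, n = 2, rank 292). Hba-a1, an alpha-globin chain gene, was at 227 and 174 TPM (200.5 ± 37.3, rank 378). Hba-a2, its copy, was at 193 and 157 TPM (175 ± 24.9, rank 473). All 3 were higher in replicate 1, and their order was the same in both libraries. The means of neighbours in that order differed by less than the SD of the higher gene.

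The other 4 genes lay lower. Hbb-bt, the paired copy of Hbb-bs, was at 33.3 and 24.1 TPM (28.7 ± 6.48, rank 4101). Cygb was at 20.5 and 25.8 TPM (23.2 ± 3.76, rank 4985). Hbb-bt and Cygb exchanged order between the libraries, and their means differed by less than the SD of Hbb-bt. Alas2 was at 4.72 and 2.90 TPM (3.81 ± 1.29), from 159 and 95 counts. Ngb was the lowest of the 7, at 0.62 and 1.54 TPM (1.08 ± 0.651), from 19 and 46 counts, a depth at which counting error alone is large.

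**Figure D2:**
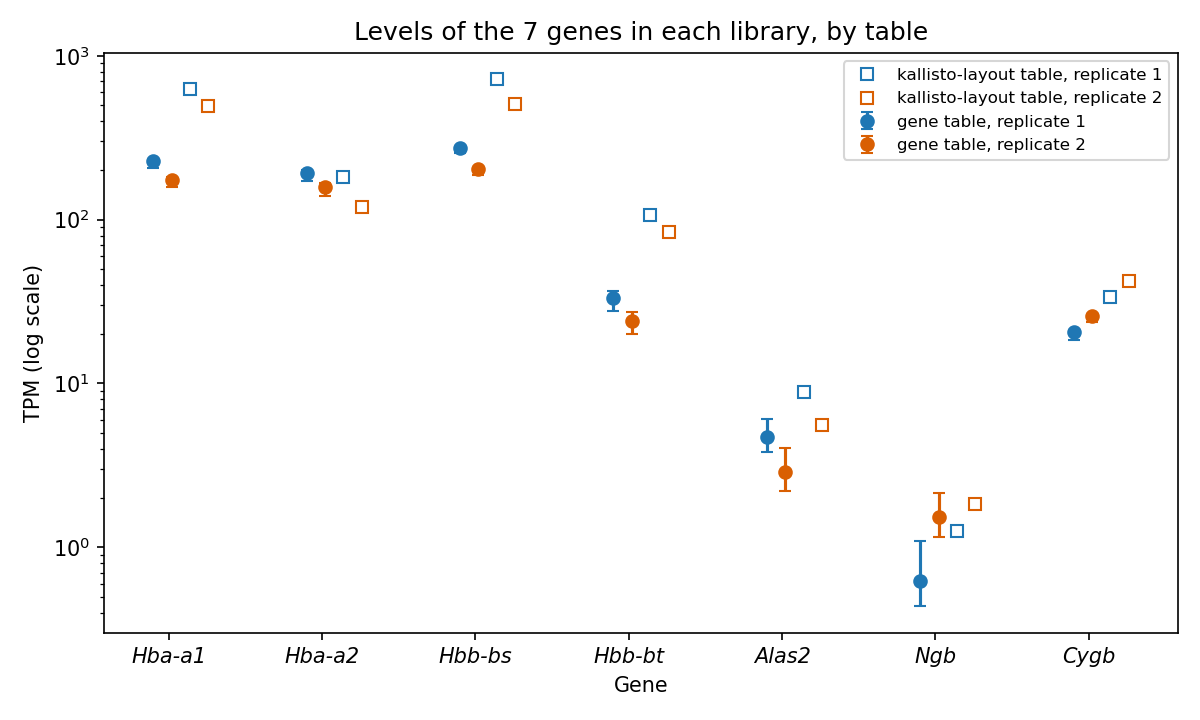
Level of each gene (TPM, log scale) in replicate 1 (blue) and replicate 2 (orange), from the gene table (filled circles, bars spanning the deposited interval, whose level is not stated) and from the kallisto-layout table (open squares, no interval). In the gene table the levels run from 0.62 TPM for Ngb to 274 TPM for Hbb-bs, and the 5 red cell genes lie lower in replicate 2 while Ngb and Cygb lie higher.

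Summed over the 4 blood globin genes, replicate 1 had 7772 counts, 0.0267% of all gene counts (95% exact Clopper-Pearson interval 0.0261 to 0.0273), and replicate 2 had 6229, 0.0196% (0.0191 to 0.0201). The intervals did not overlap. The 4 genes summed to 727 and 558 TPM, of which the alpha pair made up 419 and 331.5 and the beta pair 307 and 227. In this table the alpha sum exceeded the beta sum in both libraries, by 0.50 ± 0.071 on the log2 scale (1.36-fold and 1.46-fold, n = 2). In the second transcript table, described next, the same log2 ratios of TPM were -0.03 and 0.05, so the excess was not seen there. With 2 libraries an exact sign-flip test cannot go below 0.5, so no p-value is given for ratios between genes. Hbb-bs exceeded Alas2 by 5.99 ± 0.19 on the log2 scale, 58.1-fold and 69.8-fold.

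How the reads were divided between copies differed between the deposited tables. Beside the gene table, whose columns follow the layout of the program RSEM, each library had a second transcript table in the layout of the program kallisto, made from the reads without an alignment file. In the gene table Hba-a1 held 2689 and 2083 estimated reads and Hba-a2 held 1768 and 1539, with a posterior SD from 2.24% to 4.17% of the count. In the kallisto-layout table Hba-a1 held 3418 and 2890 and Hba-a2 held 605 and 420. The alpha sum moved less, from 4457 and 3622 reads to 4023 and 3310. The log2 ratio of Hba-a1 to Hba-a2 was accordingly 0.19 ± 0.064 in the gene table and 1.91 ± 0.20 in the kallisto-layout table (TPM, n = 2 each). In both tables Hba-a1 was the higher copy, and the size of the difference depended on the table.

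The beta pair depended less on the table. Hbb-bs held 2909 and 2294 reads in the gene table and 2725 and 2049 in the kallisto-layout table. Hbb-bt held 406 and 313 reads in the former and 595 and 499 in the latter. Hbb-bs exceeded Hbb-bt by 3.06 ± 0.019 on the log2 scale in the gene table (8.23-fold and 8.39-fold) and by 2.67 ± 0.10 in the kallisto-layout table. The posterior SD was at most 0.777% of the count for Hbb-bs and from 4.98% to 5.69% for Hbb-bt. Alas2, Ngb and Cygb, with no stretches shared on the transcript strand, had a posterior SD of 0 at the gene level.

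**Figure D3:**
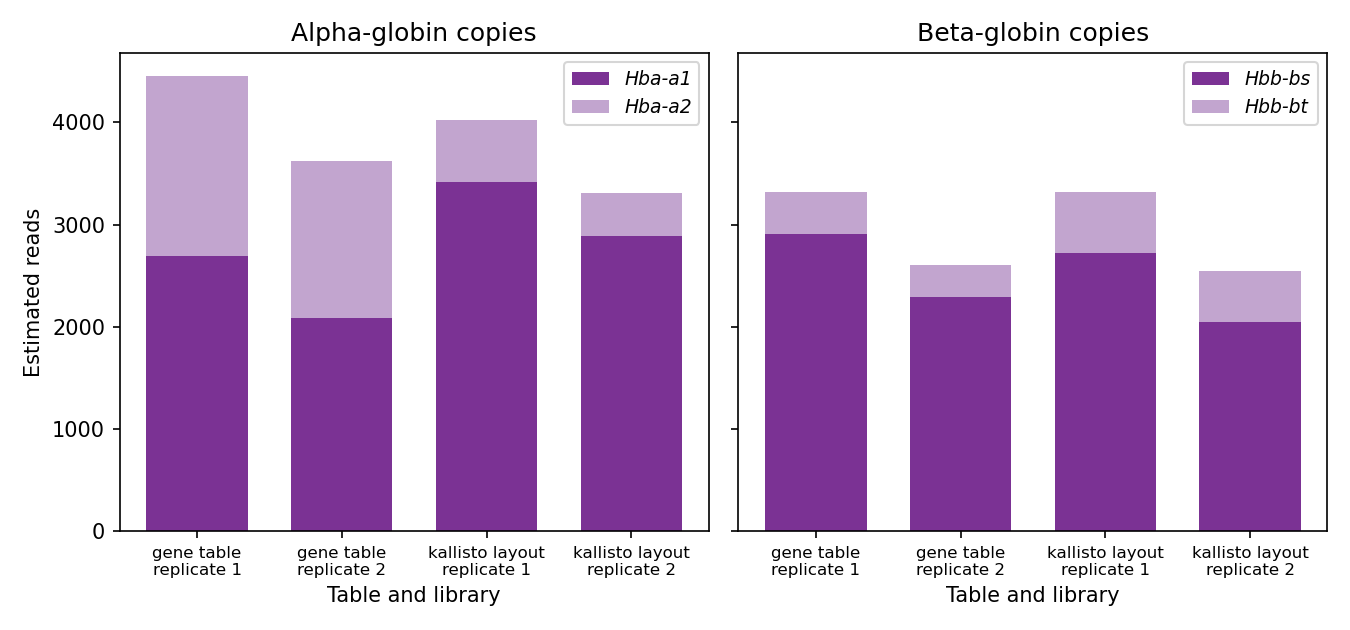
Estimated reads (vertical axis, from 0) assigned to each alpha-globin copy (left) and beta-globin copy (right), stacked, by table and library. The dark part, Hba-a1 or Hbb-bs, takes 2689 of 4457 alpha reads in replicate 1 of the gene table and 3418 of 4023 in the kallisto-layout table, while the beta pair changes less.

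The length by which reads were divided also differed between the tables. The gene table counted an effective length of 600 bases for Hba-a1-201, 455 for Hba-a2-201 and 529 for Hbb-bs-201, against 353, 213 and 283 in the kallisto-layout table. Kallisto-layout TPM values were 624 and 493 for Hba-a1, 183 and 119 for Hba-a2, 718 and 508 for Hbb-bs, and 107 and 84.1 for Hbb-bt. The ratio of kallisto-layout to gene-table TPM was 2.75 and 2.83 for Hba-a1, 0.951 and 0.756 for Hba-a2, 2.62 and 2.51 for Hbb-bs, 3.23 and 3.49 for Hbb-bt and 1.65 and 1.63 for Cygb, against medians of 1.59 and 1.56 over 14395 genes. Hba-a2 alone of these 5 was lower in the kallisto-layout table. The alpha sum and the beta sum were then level, with a log2 ratio of 0.0068 ± 0.056, so the excess of alpha over beta TPM held in the gene table only. In estimated reads, alpha exceeded beta by 0.45 ± 0.033 in the gene table and by 0.33 ± 0.071 in the kallisto-layout table.

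Within genes, most reads were assigned to 1 transcript. Hba-a2-201 held 100% of the TPM of its gene in both libraries, and Hba-a2-202, a transcript with a retained intron, was listed at 0 in both tables. Its counterpart Hba-a1-202 took 6.17% and 21.1% of Hba-a1, as 112 ± 53.7 and 312 ± 67.8 reads (posterior SD), and 0 in the kallisto-layout table. None of its 395 stretches of 100 bases occurred in Hba-a1-202 alone, so no stretch of that length identified this transcript. Hbb-bs-201 held 98.9% and 99.3% of Hbb-bs in the gene-table estimate. In the kallisto-layout table it held 78.2% in replicate 1, and Hbb-bs-203, the transcript with the upstream first exon, held 260 and 205 reads, against 0 and 2.08 in the other table. Hbb-bt and Cygb had 1 annotated transcript each.

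Alas2-201 led in both libraries, with 67.3% and 71.8% of the TPM of Alas2. Alas2-202 held 27.3 reads in replicate 1 and 0 in replicate 2, each with a posterior SD over 13 reads. The short transcript Alas2-204 held 7.48 and 8.25 reads, which its length turned into 16.7% and 28.2% of the TPM. The leading transcript of Ngb was not the same in the 2 libraries. All 19 reads of replicate 1 were assigned to Ngb-203, whereas in replicate 2 Ngb-201 held 41.1 reads and Ngb-202 held 4.94. Ngb-201 and Ngb-203 could be told apart over only 7.58% and 7.28% of their stretches of 100 bases, and the kallisto-layout table gave the same leading transcripts.

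Between the 2 libraries, all 7 genes differed by more than counting noise: the 5 red cell genes were lower in replicate 2, and Ngb and Cygb were higher. The test was an exact two-sided binomial test on counts scaled by the TMM method, with p-values adjusted over 18332 genes, of which it called 22.7% (10.2% lower and 12.5% higher in replicate 2). It has no replicate error, and it compares libraries, not conditions. In edgeR's exact test with a preset biological coefficient of variation of 0.1, which called 173 genes of all those tested, none of the 7 passed (adjusted p from 0.127 for Alas2 to 1 for Cygb). Mbp was lower in replicate 2 like the red cell genes, with 28676 and 16970 counts and a log2 ratio of -0.90, and Prox1 was higher like Ngb and Cygb, with a log2 ratio of 0.44. The part of such differences between the tissue samples in the globin values was not tested. In bulk tissue, fewer cells of a type and less RNA per cell cannot be told apart.

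For Hbb-bs, with 2909 and 2294 counts, the log2 ratio of replicate 2 over replicate 1 was -0.48 (95% counting interval -0.56 to -0.40, exact binomial adjusted p = 4.59e-31). That of Hba-a1 was -0.51 (-0.59 to -0.42, exact binomial adjusted p = 1.28e-31), from 2689 and 2083 counts. Hba-a2, with 1768 and 1539 counts, had a log2 ratio of -0.34 (-0.44 to -0.24, exact binomial adjusted p = 5.00e-10). The alpha sum, which does not depend on how reads are divided between the copies, gave -0.44 (-0.50 to -0.37). Hbb-bt gave -0.51 (-0.73 to -0.30, exact binomial adjusted p = 2.88e-05) from 406 and 313 counts, and the beta sum -0.49 (-0.56 to -0.41). The intervals of the alpha and beta sums overlapped. Alas2, which supplies heme to the same cells, had a log2 ratio of -0.88 (-1.26 to -0.51, exact binomial adjusted p = 2.96e-05). In these gene-table counts its interval overlapped those of Hba-a1, Hbb-bs and Hbb-bt but not that of Hba-a2. The counts of Alas2 were the fewest of the 5. With kallisto-layout counts the order of the alpha copies was reversed, at -0.33 for Hba-a1 and -0.62 for Hba-a2.

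Cygb and Ngb went the other way, and the cells that held their transcripts were not identified. Cygb had 923 and 1238 counts and a log2 ratio of 0.28 (0.16 to 0.41, exact binomial adjusted p = 7.02e-05). Prcd, which overlaps Cygb on the other strand, had 26 and 47 counts. Its log2 ratio was 0.70 (exact binomial adjusted p = 0.145), and its part in the Cygb value was not tested. Ngb had 19 and 46 counts and a log2 ratio of 1.12 (0.34 to 1.99, exact binomial adjusted p = 0.0214). In the kallisto-layout table Ngb had 22 and 39 reads, a log2 ratio of 0.72 and an exact binomial adjusted p of 0.155, so its difference passed the test in 1 table only. Cygb exceeded Ngb by 4.56 ± 0.69 on the log2 scale (TPM, 33.1-fold and 16.8-fold). Apex2, which overlaps Alas2 on the other strand, had 437 and 345 counts and a log2 ratio of -0.48 (exact binomial adjusted p = 5.01e-05), and its part in the Alas2 value was not tested.

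**Figure D4:**
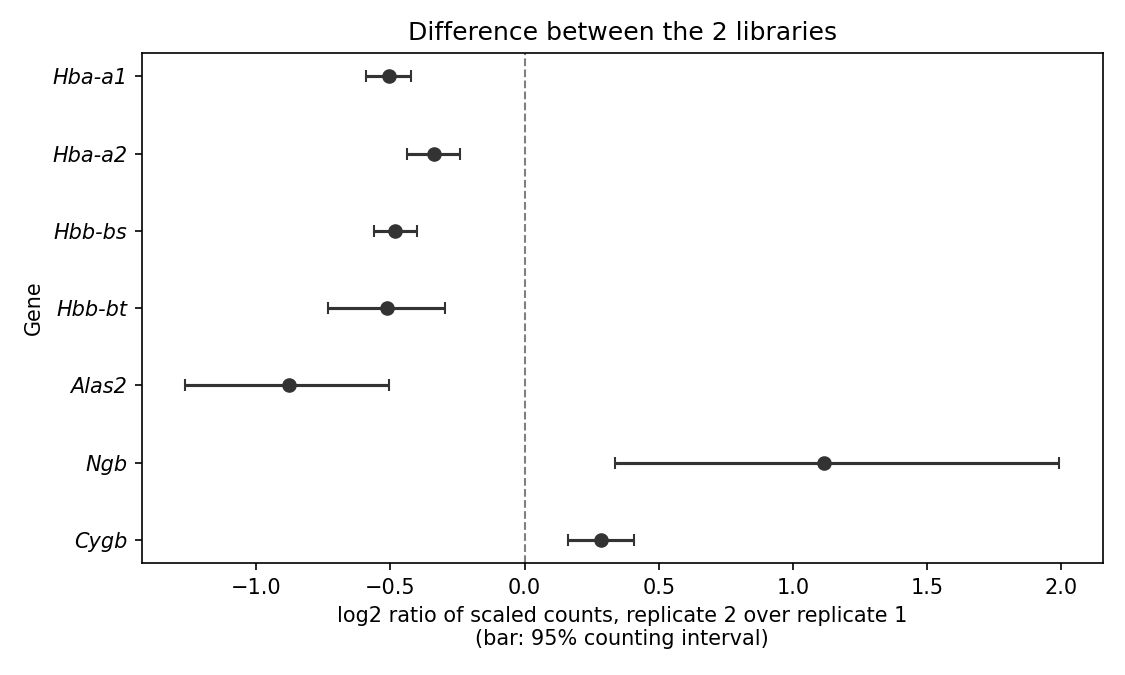
log2 ratio of scaled counts, replicate 2 over replicate 1 (horizontal axis), for each of the 7 genes, with 95% counting intervals as bars and no replicate error. The 4 blood globins lie between -0.51 and -0.34 and Alas2 at -0.88, left of 0, while Cygb at 0.28 and Ngb at 1.12 lie right of it.

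The embryonic globin genes were listed at 0, and the other globin genes were at 0 or at low levels. Of 14 such genes looked for, 12 had a row, and 8 were listed at 0 in both libraries: the embryonic genes Hba-x, Hbb-y and Hbb-bh1, and Hbb-bh0, Hbb-bh2, Hbb-bh3, Hba-ps3 and Hba-ps4. The theta-globin copies Hbq1a and Hbq1b, which also share reads, had 3.98 and 9.15 counts and 9.02 and 13.8 counts. Hbq1b was at 0.96 and 1.39 TPM, with a mean of 1.175 beside 1.08 for Ngb. It did not pass the test (log2 ratio 0.47, exact binomial adjusted p = 0.735). Mb, the myoglobin of muscle, had 1 and 0 counts. Adgb (androglobin) had 22 and 24 counts, 0.24 TPM in each library and a log2 ratio of -0.02 (exact binomial adjusted p = 1). Hbb-b1 and Hbb-b2, the beta-globin names used for another mouse haplotype, had no row, so reads from such copies, if any, would have been assigned to Hbb-bs or Hbb-bt or to none.

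Other genes of red cells did not share the level of the globins. Of 22 such genes in the table, 16 were under 1 TPM on average, and 10 had enough counts to test (a mean of at least 10). Among those, 1 was lower, 1 higher and 8 did not pass, with a median log2 ratio of -0.03 beside 0.0022 over all genes tested. Of all genes tested, 22.7% passed (10.2% lower and 12.5% higher), the share to set beside this count and those of the lists below. Gata1, the red cell transcription factor gene, and Car1 were listed at 0 in both libraries, and Klf1 had 1 count in each. The membrane protein gene Slc4a1 (band 3) had 9 and 18 counts.

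The red cell list members at higher levels are also expressed by brain cells. Tfrc, the transferrin receptor gene, was at 46.4 and 41.7 TPM and was the gene that was lower in replicate 2 (log2 ratio -0.14, exact binomial adjusted p = 0.00123). Sptb, a beta-spectrin gene, was at 36.3 and 39.2 TPM and was the gene that was higher (0.06, exact binomial adjusted p = 0.029). Bpgm, an enzyme of red cell glycolysis, had 1080 and 1172 counts and Ank1 (ankyrin 1) had 1371 and 1471, neither past the test. Among list genes with a mean count of at least 50, those whose ratio lay nearest to that of Hbb-bs were Tal1 (-0.50, not past the test), Pvalb (-0.45) and Ly6c1 (-0.57), by the absolute difference of a single ratio from 2 libraries.

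Alas1, the general form of the enzyme that Alas2 supplies in red cells, was at 64.2 and 64.8 TPM and had a log2 ratio of 0.0003 (exact binomial adjusted p = 1). Of the 8 general heme synthesis genes tested, 1 was lower, none was higher and 7 did not pass. The gene past the test was Cpox (coproporphyrinogen oxidase), at 1043 and 913 counts (log2 ratio -0.33, exact binomial adjusted p = 7.16e-06). Fech, which inserts iron into the ring, had 1132 and 1259 counts, and Urod had 493 and 476. Of the 4 locus neighbours of alpha globin (Snrnp25, Rhbdf1, Mpg and Nprl3) none passed, and Nprl3, whose introns are known to hold alpha-globin enhancers, was at 26.5 and 22.1 TPM (-0.18, exact binomial adjusted p = 0.0738).

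Of 6 tested genes for the disposal of heme and haemoglobin, 2 were higher, 1 lower and 3 did not pass. Cd163, the haemoglobin scavenger receptor of macrophages, had 131 and 89 counts (log2 ratio -0.69, exact binomial adjusted p = 0.00337). Hmox1, the inducible heme oxygenase, had 62 and 105 counts (0.62, exact binomial adjusted p = 0.0326). Lrp1, a receptor for heme bound to hemopexin among many ligands, had a log2 ratio of 0.03 (exact binomial adjusted p = 0.0375). The constitutive Hmox2 had 884 and 963 counts and did not pass. Cd163 thus lay on the side of the blood globins and Hmox1 on the other.

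Most genes looked for in other blood cells were under 1 TPM. All 7 neutrophil genes looked for were under 1 TPM, S100a8 with 2 counts in each library and S100a9 with 3 and 6. Among 5 platelet genes 4 were under 1 TPM; Pf4 had 9 and 7 counts and Itga2b 21 and 16 (log2 ratio -0.52, exact binomial adjusted p = 0.546). Of the 7 lymphocyte genes, 6 were under 1 TPM. Ighm was at 4.74 and 7.44 TPM, from 142 and 237 counts (log2 ratio 0.60, exact binomial adjusted p = 0.000855). Its mean of 6.09 TPM was above the 3.81 TPM of Alas2. The summed levels of the lists were 1.18 and 1.40 TPM for neutrophils, 2.44 and 1.74 for platelets and 5.64 and 7.86 for lymphocytes.

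Genes of the vessel wall passed the test in both directions. All 6 endothelial genes were tested, and 3 were higher in replicate 2 (Cldn5 at 0.41, Cdh5 at 0.35, Pecam1 at 0.32), 2 lower (Ly6c1 at -0.57, Slco1a4 at -0.33) and 1 not past the test (Flt1). Their summed level was 98.8 and 99.9 TPM. Of 6 mural cell genes, Pdgfrb (0.20) and Kcnj8 (0.68) were higher and 4 did not pass, with a sum of 89.6 and 96.0 TPM. Beside Cygb stand 5 fibroblast genes: Dcn was higher (0.57), Col1a1 (-0.14) and Col1a2 (-0.15) were lower, and 2 did not pass, with a sum of 60.7 and 69.1 TPM. The part of these cells in the globin values was not tested.

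Beside Ngb stand genes of interneurons and of the hypothalamus, a region with high Ngb. Of 7 interneuron genes, 4 were higher in replicate 2 (Sst at 0.51, Npy at 0.66, Nos1 at 0.26, Gad1 at 0.08), Pvalb was lower (-0.45) and 2 did not pass, and their sum was 340 and 449.7 TPM. Of 7 hypothalamic genes 6 were under 1 TPM, and Hcrt, Pmch, Avp, Oxt and Agrp each had at most 5 counts in a library. Pomc, with 19 and 27 counts, did not pass the test (exact binomial adjusted p = 0.675). The part of these cells in the Ngb value was not tested.

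**Figure D5:**
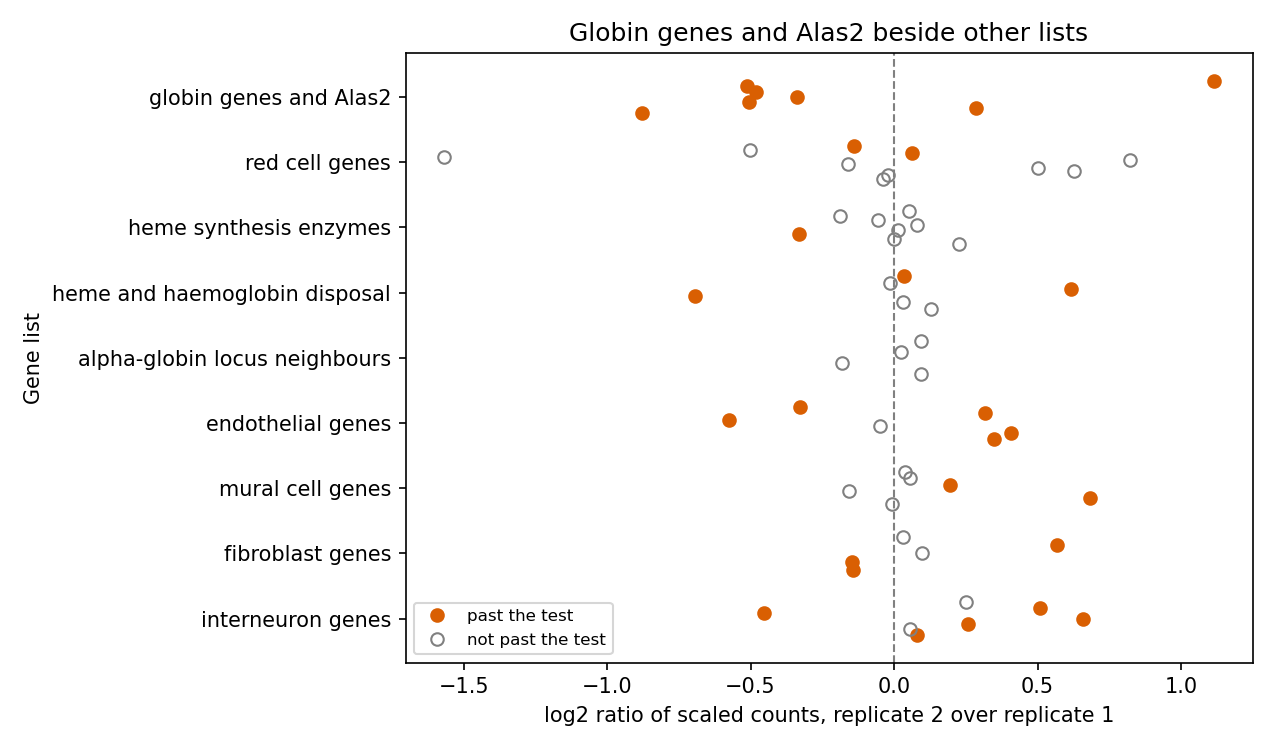
log2 ratio of scaled counts, replicate 2 over replicate 1 (horizontal axis), for each tested gene of 9 lists (vertical axis), filled where past the exact binomial test and open where not. The globin genes and Alas2 are all filled, 5 left and 2 right of 0, and 8 of 10 other red cell genes are open. Of all genes tested, 22.7% passed.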

How the data were processed

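The authors deposited, for each of 2 libraries, a gene table and 2 transcript tables of build mm10 with annotation GENCODE M21, per the deposited notes. The expected counts (estimated reads), TPM values, posterior SDs and TPM intervals are in the layout of RSEM, per the file headers, which also hold each transcript's deposited percent of its gene. A second table of estimated counts and TPM is in the layout of kallisto. No source used here names the aligner, the quantifier or a version. Spike-ins (96) and 26249 entries that name no gene (2.669e-05% and 9.401e-06% of counts) were left out of library totals, and 86 genes have no row in the kallisto-layout table.

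Members and lists were chosen with earlier results of these data known. Counts were rounded and scaled with TMM (edgeR 4.0.16, R 4.3.3). The 2 libraries were compared by an exact two-sided binomial test (scipy 1.17.1) over all genes with a mean count of at least 10, with Benjamini-Hochberg adjustment and a threshold of 0.05. Log2 ratios use a prior count of 0.5, and intervals cover counting error only. Reads are not known to be independent molecules. DESeq2 1.42.0 size factors, total counts and spike-ins were alternative scalings. Shares of 100-base stretches and substitutions came from GENCODE M21 transcripts, promoters from RefSeq (5 of the 7 genes; Ngb and Cygb had no entry). The genes named are the 7 members, the other globins, and from each other list up to 4 genes of highest TPM and those past the test. Beside these stand the 3 list genes with a mean count of at least 50 whose log2 ratio is nearest to that of Hbb-bs, and cell type markers of the tissue (Camk2a, Slc17a7, Prox1). Genes outside this rule (Gata1, Car1, Klf1, Slc4a1, the hypothalamic genes at few counts, Prcd, Apex2 and Mbp) were chosen after their values were seen. Items withheld from the text are not reported here.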

Additional observations from a re-analysis of the deposited data

How the results depend on the processing

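No paired analysis was possible because there is 1 group, and leaving out a replicate leaves no second library to test against. With 19 to 46 counts, Ngb is limited by depth. Of 157 alternative values, 122 stayed within the spread between replicates or, where tested, on the same side of the threshold. A further 22 moved by more than that spread, 13 lost a call or lowered a count, and none changed sign. Levels and shares could not change sign. With 2 libraries, a value from leaving out 1 replicate always lies within the spread, so such values among the 122 are no check. That spread is wide for Ngb-201, which held 0% of the TPM of Ngb in replicate 1 and 81.6% in replicate 2.

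In the kallisto-layout table the mean levels were 558 TPM for Hba-a1, 613 for Hbb-bs, 95.7 for Hbb-bt, 7.20 for Alas2 and 37.9 for Cygb. Rescaling TPM without the 7SL, 7SK, RNase P and mitochondrial ribosomal RNA genes gave 344 for Hba-a1, 300.2 for Hba-a2, 409 for Hbb-bs, 49.3 for Hbb-bt, 6.55 for Alas2, 1.83 for Ngb and 39.6 for Cygb, since the remaining genes then share the same total. The log2 ratios in the kallisto-layout table were 0.0068 for alpha to beta, 1.91 for Hba-a1 to Hba-a2, 2.67 for Hbb-bs to Hbb-bt and 6.43 for Hbb-bs to Alas2. In expected counts, which are not divided by length, they were 0.52, 2.86 and 4.39 for the last 3. Transcript shares in the kallisto-layout table were 100% for Hba-a1-201, 77.7% for Hbb-bs-201 and 51.7% for Alas2-201 (the cause was not tested).

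The 5 genes lower in replicate 2 stayed lower and past the test under total count, DESeq2 and spike-in scaling, both other count minimums, a prior count of 2 and the kallisto-layout counts. The 2 higher genes fell to 1 in the kallisto-layout counts and with a mean count of at least 50, which leaves Ngb untested. When edgeR's exact test assumed 0.1 as the coefficient of variation, 0 were lower and 0 higher. That test called 173 of 18332 genes, against 4167. Spike-in scaling shifted the median log2 ratio of all genes to 0.11 and called 6516 genes, of which 84.7% were higher against 54.9% with TMM. Under it Hbb-bs was at -0.37, Hba-a2 at -0.23 and Cygb at 0.39, and 0 other red cell genes were lower.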

Other observations

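Genes known to respond to low oxygen, a setting in which Ngb and Cygb are often studied, made up a further list. Of 8 such genes 7 had enough counts to test, and 2 were lower in replicate 2, none was higher and 5 did not pass the exact binomial test. Slc2a1, the glucose transporter gene of brain endothelium and glia, had 2557 and 1690 counts (log2 ratio -0.74, exact binomial adjusted p = 1.90e-58). Vegfa, the vascular growth factor gene, had 1532 and 1448 counts (-0.22, exact binomial adjusted p = 0.000366). Bnip3, a mitophagy gene, had 1580 and 1695 counts and Pdk1, a kinase that restrains pyruvate oxidation, had 1115 and 1290, neither past the test. The summed level of the list was 157 TPM in replicate 1 and 137.5 TPM in replicate 2.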
